A study of Mus musculus with 2 samples.

Results

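Tgm2 and Lbp lie close together on mouse chromosome 2, with Bpi between them, and in fetal liver progenitors lacking IκBα the first was more abundant and the second less abundant than in the WT library. The 7 genes described here, Tti1, Rprd1b, Tgm2, Bpi, Lbp, Snhg11 and Ralgapb in their order along the chromosome, were taken from the 32285 genes of the count tables because they sit in this stretch. Tgm2 and Lbp were chosen by the difference of their UMI counts between the genotypes, so that their KO and WT values are a description and support nothing by themselves. The question was whether the neighbours shared the difference.

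The cells came from the fetal liver of CD1 embryos, an outbred stock, at embryonic stage E14.5. The WT library was made from 2 pooled embryos with intact IκBα, and the KO library from 3 pooled embryos homozygous for a targeted null allele of Nfkbia, the gene of IκBα, an inhibitor that holds NF-κB in the cytoplasm. Both pools were depleted of lineage-positive cells and sorted as LSK cells, a gate of lineage-negative, SCA1-positive, cKIT-positive progenitors. The titles name LT-HSC, whereas the cell type entries name LSK. The methods state that heterozygous mice were mated, in part carrying a Gfi1:tomato reporter allele, and the labels do not say which embryos carried it. The paper's reporting summary lists a CD1 wild-type strain beside the knockout line.

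Each genotype had 1 library and no replicate, so no test was possible, and every interval is a 95% interval for counting error that leaves out differences between embryos. The stock is outbred and 2 embryos stood against 3, so an effect of the IκBα genotype and an inherited variant near these genes cannot be told apart. The libraries kept 3458 WT and 4417 KO cells, whose median depths were 28065 and 19560 UMIs, and 7 barcodes occurred in both. Kit, which defines the sort, had a UMI in 57.9% of WT and 44.1% of KO cells, and Ly6a, the gene of SCA1, in 12.1% and 8.24%. A UMI marks 1 captured RNA molecule, and levels are given as CPM, the UMIs of a gene scaled to the total UMIs of the same group of cells. Nfkbia had 1478 UMIs in the WT library and 7 in the KO library, a log2 KO/WT of -7.59 (-8.91 to -6.55).

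Cells were divided by marker genes that included no member, into 10 gates that held 2194 WT and 2831 KO cells. A gate is a range of a score and not a sharp type: 29.3% of WT and 27.4% of KO cells lay near a cut, and 1264 WT and 1586 KO cells stayed ungated. The HSC-like gate (339 WT and 311 KO cells) rested on Hlf, Mecom, Procr, Mllt3, Esam and Robo4, with a median of 4 of these per cell. Its median score was 1.295, against medians from -0.726 to -0.048 for the other classes. The HSC-like markers did not mark this gate alone, since endothelial-like cells had a median HSC-like score of 0.89. The lymphoid-like gate was the weakest of those used, with a median of 2 markers per cell. Macrophage-like, endothelial-like and hepatocyte-like cells, which a sort for LSK cells should hold few of, made up 1.56%, 1.85% and 1.36% of the WT cells and 2.11%, 2.29% and 2.02% of the KO cells.

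The neighbours have little in common in what they do. Tgm2 encodes tissue transglutaminase, a calcium-dependent enzyme that cross-links proteins and is a classic target of retinoic acid. Lbp encodes the lipopolysaccharide-binding protein, an acute-phase plasma protein made mainly by hepatocytes that passes bacterial lipopolysaccharide to CD14 and TLR4. Bpi encodes its relative in neutrophil granules, which binds lipopolysaccharide and kills bacteria. Rprd1b (CREPT) binds the C-terminal domain of RNA polymerase II, Tti1 belongs with Tti2 and Telo2 to the complex that stabilises PIKK kinases such as mTOR and ATM, and Ralgapb encodes the shared β subunit of the GTPase-activating complex for Ral proteins. Snhg11 is a host gene of small nucleolar RNA, annotated as protein-coding in GENCODE and as non-coding in RefSeq.

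By GENCODE vM21 (build GRCm38), Tti1 runs on the minus strand of chromosome 2 from 157981803 to 158028433. Rprd1b follows on the plus strand from 158028497 to 158132297, with 63 bp between their starts. Tgm2 occupies 158116402 to 158146436 on the minus strand. Bpi (158258094 to 158284531), Lbp (158306493 to 158332852), Snhg11 (158375638 to 158386145) and Ralgapb (158409848 to 158499253) are all on the plus strand. From the edge of Tgm2 to the far edge of Lbp the distance is 216 kb. The longest Rprd1b isoform overlaps Tgm2 by 15896 bp on the opposite strand. Cell Ranger was run with its default settings, under which reads are counted in the sense direction of a gene.

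Promoter windows, from 250 bases before to 50 after a start, were held for 5 of the 7 members in the RefSeq table for GRCm38.p6. Tgm2 and Lbp were not among them. The window of Rprd1b (chr2:158028247-158028546, plus strand) is shown because Tti1 starts within it in the opposite direction, so that the pair reads out from 1 CpG-rich stretch. The 162 bases that also belong to the Tti1 window are in capitals. The windows of Bpi (chr2:158257991-158258290, plus strand) and Snhg11 (chr2:158375463-158375762, plus strand) are shown with matches on either strand to TATAAA and to GGG followed by any 5 bases and CC, the loose form of an NF-κB site, in capitals.
Rprd1b: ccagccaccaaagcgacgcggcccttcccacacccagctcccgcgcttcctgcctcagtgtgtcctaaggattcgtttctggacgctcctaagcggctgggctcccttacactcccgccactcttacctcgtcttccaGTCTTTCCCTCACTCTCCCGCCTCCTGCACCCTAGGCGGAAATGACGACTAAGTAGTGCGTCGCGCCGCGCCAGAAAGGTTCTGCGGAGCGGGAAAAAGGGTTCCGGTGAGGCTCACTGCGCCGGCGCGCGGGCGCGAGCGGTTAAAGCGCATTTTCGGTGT
Bpi: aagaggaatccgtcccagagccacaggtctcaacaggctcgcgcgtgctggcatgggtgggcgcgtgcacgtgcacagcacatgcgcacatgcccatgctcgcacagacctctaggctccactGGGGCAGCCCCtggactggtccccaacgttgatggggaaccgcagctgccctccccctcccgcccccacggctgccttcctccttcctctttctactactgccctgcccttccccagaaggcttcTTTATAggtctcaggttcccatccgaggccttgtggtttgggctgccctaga
Snhg11: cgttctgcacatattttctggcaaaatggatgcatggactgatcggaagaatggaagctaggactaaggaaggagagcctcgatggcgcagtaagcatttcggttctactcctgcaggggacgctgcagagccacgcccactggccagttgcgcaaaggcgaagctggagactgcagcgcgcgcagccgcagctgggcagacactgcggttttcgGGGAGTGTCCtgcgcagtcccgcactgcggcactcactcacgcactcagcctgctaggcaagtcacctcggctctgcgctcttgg
The loose NF-κB letters occurred in 50.8% of the 32851 windows of the table, and the overlapping pair of matches in Bpi and the 1 in Snhg11 are a description. The Rprd1b window also held 1 match, outside the capitals, and 1 of the windows of Ralgapb held 4. The core of a retinoic acid receptor site, AGGTCA, was found in 16.3% of all windows and in none of these 3. A site for GATA factors, AGATAA, was found in 11.2% of all windows and likewise in none of the 3. TATAAA (13.6%) occurred in the Bpi window only, close to the start.

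Lbp, the lipopolysaccharide-binding protein, was lower in the KO library in each of the 10 gates. In HSC-like cells it had 652 UMIs in WT and 183 in KO, which corresponded to 125 CPM (116 to 135) and 51.0 CPM (43.9 to 59.0). The log2 KO/WT was -1.30 (-1.54 to -1.06), and the intervals of the libraries lay far apart. Neutrophil-like cells had 604 and 345 UMIs, or 89.3 and 54.3 CPM, with a log2 KO/WT of -0.72 (-0.91 to -0.52).

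The lower level of Lbp was also seen in endothelial-like, hepatocyte-like and macrophage-like cells. Endothelial-like cells had 136 CPM in WT and 50.3 CPM in KO (165 and 81 UMIs), a log2 KO/WT of -1.43 (-1.83 to -1.04). Hepatocyte-like cells, the textbook source of the protein, had 250 CPM in WT and 160 CPM in KO (488 and 427 UMIs), a log2 KO/WT of -0.64 (-0.83 to -0.45). Macrophage-like cells went from 69.2 CPM in WT to 24.3 CPM in KO (148 and 50 UMIs). The hepatocyte-like difference was thus among the smaller ones, and the macrophage-like difference, at -1.51 (-2.0002 to -1.04), was among the larger.

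Of the remaining gates, monocyte-dendritic-like cells had 48.4 CPM of Lbp in WT and 18.2 CPM in KO (204 and 47 UMIs, log2 KO/WT -1.41). Lymphoid-like cells had 38.2 and 20.8 CPM (233 and 100 UMIs, -0.87). Megakaryocyte-like cells had 30.2 and 9.86 CPM (78 and 44 UMIs, -1.61). That last gate carried much hepatocyte RNA, with 778 CPM of Alb, the albumin gene, in WT and 287 CPM in KO. Scaled by the Lbp to Alb ratio of hepatocyte-like cells, this RNA would bring 16.3 CPM of Lbp in WT and 3.30 CPM in KO, and its part in the Lbp difference of the gate was not tested.

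Erythroid cells held little Lbp. Early erythroid-like cells had 43 UMIs in WT and 24 in KO, or 1.75 and 1.21 CPM, with a log2 KO/WT of -0.54 (-1.32 to 0.21) that includes no difference. Late erythroid-like cells had 3.896 and 2.14 CPM (48 and 31 UMIs, -0.86, -1.56 to -0.18). With a call set at 1.5-fold among genes with at least 100 UMIs over both libraries, Lbp was called lower in 8 of the 8 gates where it had that many. The number of gates called was 6 when the doublets called by Scrublet were left out and 7 when CPM was averaged over single cells, with a gate margin of 0.5 or with gating on thinned cells. The hepatocyte-like value came to lie within 1.5-fold under 3 of these, at -0.51 without doublets, -0.47 with averaged CPM and -0.53 with gating on thinned cells. Late erythroid-like cells without doublets held 11 and 10 UMIs of Lbp (-0.31). Of all genes measured that deeply, the share called lower was 1.54% in the HSC-like, 0.77% in the lymphoid-like, 0.54% in the neutrophil-like and 1.34% in the monocyte-dendritic-like gate. It was 1.68% in the megakaryocyte-like, 1.43% in the macrophage-like, 1.8% in the endothelial-like and 0.795% in the hepatocyte-like gate. Because Lbp was chosen for this difference, the shares stand beside it as a scale only.

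**Figure D1:**
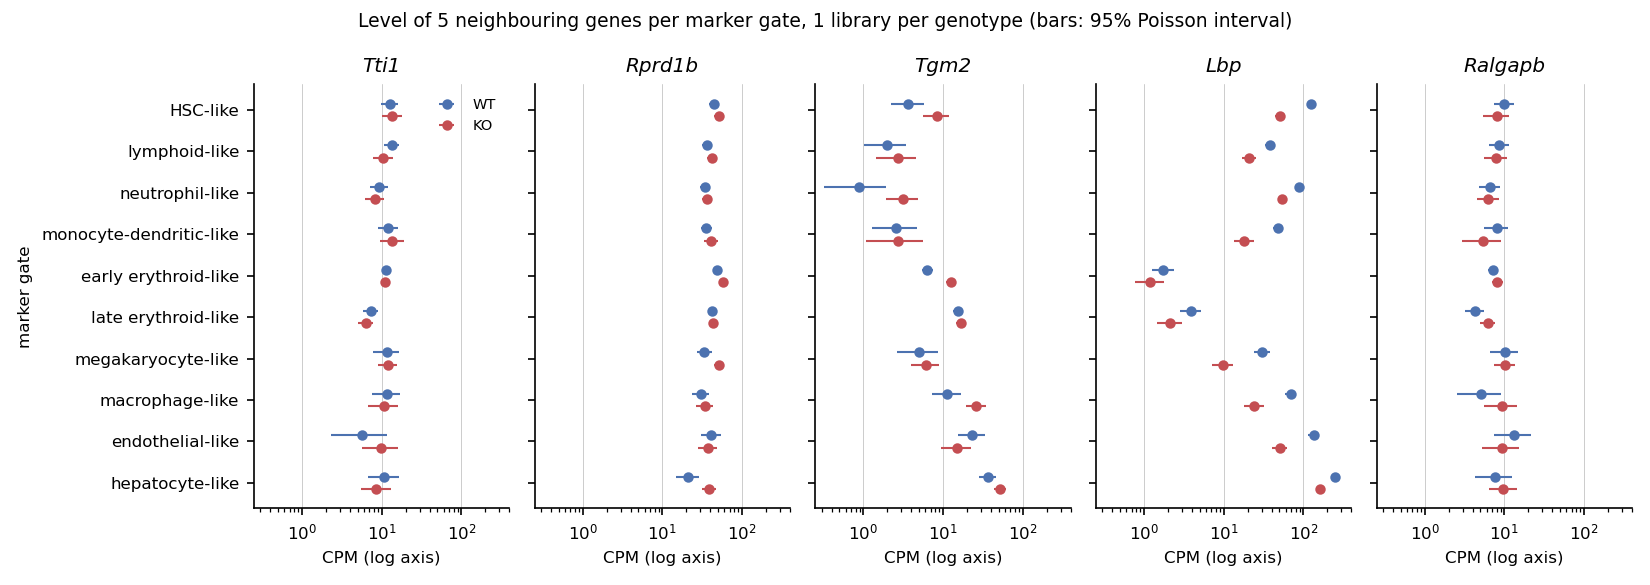
Level of Tti1, Rprd1b, Tgm2, Lbp and Ralgapb in CPM (log axis) in the 10 marker gates, WT in blue and KO in red; points are the 1 library of each genotype and bars the 95% Poisson interval. Lbp was lower in KO in each gate, from 125 to 51.0 CPM in HSC-like cells, and Tgm2 was higher in 9 of the 10.

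Across gates Lbp spanned 1.75 to 250 CPM in WT and 1.21 to 160 CPM in KO. HSC-like cells of the WT library held 71.5 times the Lbp level of early erythroid-like cells, and those of the KO library 42.3 times. In WT the order was hepatocyte-like, endothelial-like, HSC-like, neutrophil-like, macrophage-like, monocyte-dendritic-like, lymphoid-like and megakaryocyte-like cells, with both erythroid gates last. Endothelial-like and HSC-like cells did not differ beyond counting error (log2 ratio 0.11, -0.14 to 0.36), nor did lymphoid-like and megakaryocyte-like cells (0.34, -0.04 to 0.73). In KO, hepatocyte-like cells were again first, and the next 3, neutrophil-like, HSC-like and endothelial-like, at 54.3, 51.0 and 50.3 CPM, did not differ from each neighbour beyond counting error.

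To compare cells of different depth, each cell was thinned to 5000 UMIs, which left out 8 WT and 15 KO cells of the HSC-like gate. Lbp was then found in 157 of 331 WT cells, 47.4% (exact Clopper-Pearson interval 41.9 to 53.0), and in 71 of 296 KO cells, 23.99% (19.2 to 29.3). The difference was -23.4 percentage points (-30.7 to -15.8). Without thinning the shares were 82.6% and 39.2%. Early erythroid-like cells, the gate with the lowest Lbp level, had 1.07% in WT and 0.456% in KO after thinning, from median depths of 41990 and 28577 UMIs against 14364 and 10214 UMIs in HSC-like cells. In neutrophil-like cells 38.5% of WT and 29.1% of KO cells held Lbp, a difference of -9.33 points (-18.8 to 0.18) that reached 0 at this depth. Hepatocyte-like cells had 46.7% and 48.2% (45 and 85 cells, difference 1.57 points, -17.4 to 20.2), but with 2000 UMIs per cell 42.6% and 23.9% (-18.7 points, -36.1 to -1.09), so that no direction is read from their share.

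The markers of other cells were set beside these values. In the HSC-like gate the 7 hepatocyte markers were all detected, at a summed 60.4 CPM in WT and 114 CPM in KO. The 6 macrophage markers summed to 5.77 and 5.02 CPM and the 6 endothelial markers to 54.2 and 52.4 CPM. Of the 5 stromal markers, Col1a1, Col3a1, Dcn and Des were at 0 in both libraries. The ratio of Lbp to Alb was taken from 47 WT and 89 KO hepatocyte-like cells. At this ratio the Alb in HSC-like cells would bring 0.343 CPM of Lbp in WT and 0.419 CPM in KO. The measured levels were 125 and 51.0 CPM. The part of hepatocyte RNA in the Lbp difference of this gate was not tested.

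**Figure D2:**
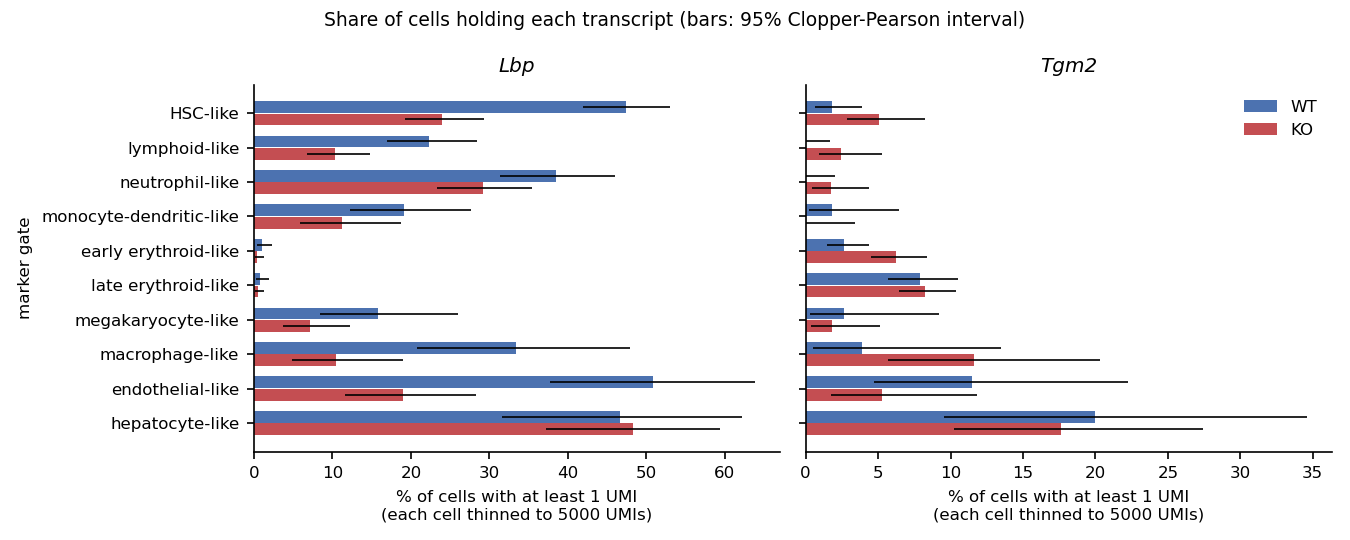
Share of cells of each gate with at least 1 UMI of Lbp (left) or Tgm2 (right), in percent from 0, after every cell was thinned to 5000 UMIs; bars are WT (blue) and KO (red), and lines the 95% Clopper-Pearson interval. Lbp was held by 47.4% of WT and 23.99% of KO HSC-like cells and by about 1% or less of erythroid cells, and Tgm2 by 2.68% of WT and 6.23% of KO early erythroid-like cells.

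Tgm2, the tissue transglutaminase, was higher in KO in 9 of the 10 gates, but on far fewer UMIs than Lbp. In early erythroid-like cells it had 156 UMIs in WT and 250 in KO, or 6.37 CPM (5.41 to 7.45) and 12.6 CPM (11.1 to 14.2). The log2 KO/WT was 0.98 (0.69 to 1.28), past 1.5-fold, and 1.12% of the 9080 genes measured in this gate lay past that fold in the same direction, 1.72% in either. The share of thinned cells with Tgm2 was 2.68% in WT and 6.23% in KO, a difference of 3.55 points (1.13 to 5.98).

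Late erythroid-like cells, in contrast, had similar Tgm2 levels in the libraries. They held 192 UMIs in WT and 242 in KO, 15.6 and 16.7 CPM, with a log2 KO/WT of 0.10 (-0.18 to 0.38). WT cells thus had 2.45 times as much Tgm2 in the late as in the early erythroid-like gate (log2 1.29, 0.98 to 1.61), and KO cells 1.33 times (log2 0.41, 0.15 to 0.67).

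HSC-like cells had 19 UMIs of Tgm2 in WT and 30 in KO, 3.65 and 8.37 CPM, a log2 KO/WT of 1.19 (0.32 to 2.11). Neutrophil-like cells had 6 and 20 UMIs (1.83, 0.46 to 3.43), and macrophage-like cells 24 and 54 UMIs (1.23, 0.51 to 1.99). None of these reached 100 UMIs, so that no call was made, although their intervals lay above 0. Hepatocyte-like cells had the highest level of both libraries, 36.3 CPM in WT and 52.1 CPM in KO (71 and 139 UMIs), with a log2 KO/WT of 0.52 (0.10 to 0.95) that stayed under 1.5-fold. With female cells only it was -0.08 (68 and 56 UMIs), so that the direction in this gate was not kept.

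Endothelial-like cells were the exception, with 28 UMIs of Tgm2 in WT and 24 in KO, 23.0 and 14.9 CPM, and a log2 KO/WT of -0.63 (-1.48 to 0.21) that includes no difference. Lymphoid-like (12 and 13 UMIs), monocyte-dendritic-like (11 and 7 UMIs) and megakaryocyte-like cells (13 and 27 UMIs) gave log2 KO/WT values of 0.46, 0.06 and 0.27 with intervals across 0. Only 1 of the 3 gates with at least 100 UMIs was called. In WT the hepatocyte-like, endothelial-like and late erythroid-like gates led, and most neighbours in the order did not differ beyond counting error. The expected Tgm2 from carried hepatocyte RNA in HSC-like cells was 0.050 CPM in WT and 0.136 CPM in KO. The part of this RNA in the Tgm2 difference was not tested.

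The neighbours were set beside these values. Rprd1b, which overlaps Tgm2, had 4494 UMIs in WT and 4798 in KO over all cells, 41.5 CPM (40.3 to 42.7) and 48.4 CPM (47.1 to 49.8), a log2 KO/WT of 0.22 (0.16 to 0.28). It had at least 100 UMIs in all 10 gates and was called higher in 2 of them. These were megakaryocyte-like cells, with 33.7 and 50.9 CPM (log2 0.60, 0.23 to 0.97, where 1.75% of genes were called higher), and hepatocyte-like cells, with 21.0 and 39.0 CPM (0.89, 0.36 to 1.45, where 2.59% were). Tgm2 was not called in hepatocyte-like cells, at 0.52. In megakaryocyte-like cells, at 0.27, it had too few UMIs for a call (13 and 27). In HSC-like cells Rprd1b had 44.2 and 51.6 CPM (230 and 185 UMIs, 0.22, -0.07 to 0.51) and in early erythroid-like cells 48.6 and 57.4 CPM (0.24, 0.12 to 0.36).

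Tti1, which shares the promoter stretch of Rprd1b, had 1193 UMIs in WT and 1020 in KO, 11.01 and 10.3 CPM, a log2 KO/WT of -0.10 (-0.22 to 0.02). No gate was called in the 5 where it could be, and in all 10 gates its interval included 0. Its level across gates ran from 5.75 to 13.4 CPM in WT and from 6.29 to 13.7 CPM in KO.

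Ralgapb, beyond Lbp on the other side, had 805 UMIs in WT and 766 in KO, 7.43 and 7.73 CPM, a log2 KO/WT of 0.06 (-0.09 to 0.20). In HSC-like cells it had 52 and 29 UMIs (-0.31, -1.01 to 0.38). Late erythroid-like cells gave the only interval off 0, with 53 and 90 UMIs and a log2 KO/WT of 0.53 (0.03 to 1.05).

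Bpi, the neutrophil granule relative of Lbp, was close to absent, with 4 UMIs in WT and 6 in KO over all cells. In the neutrophil-like gate, where the protein is known from mature cells, the WT library held 0 UMIs and the KO library 1. The Poisson interval of this count of 0 in WT reached up to 0.545 CPM. The floor of 3 UMIs stood at 0.444 CPM in this gate of the WT library, and no fold was given. Of the 4 UMIs in WT, all were in HSC-like cells.

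Snhg11 had 15 UMIs in WT and 43 in KO over all cells, 0.138 and 0.434 CPM (log2 KO/WT 1.65, 0.77 to 2.60). Neutrophil-like cells held 1 UMI in WT and 20 in KO, a log2 KO/WT of 4.41 with an interval from 1.77 to 9.79. Hepatocyte-like cells held 6 and 12 UMIs, and no other gate more than 3 in either library. Snhg17, a small nucleolar RNA host gene between Lbp and Snhg11 that is no member, had 1279 and 1425 UMIs, 11.8 and 14.4 CPM (0.28, 0.17 to 0.39), and was called higher in late erythroid-like cells (3.73 and 6.43 CPM, 0.78, 0.26 to 1.33), a gate where 1.96% of genes were called higher. Between Tgm2 and Bpi, D630003M21Rik had 5 and 9 UMIs and 1700060C20Rik 1 and 0 UMIs. Gm23925 within Snhg17 had no UMI in either library, and Gm20412 within Tgm2 had 1 and 0.

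All 35 genes within 1 Mb of the interval from Tgm2 to Lbp were then read in order. In the HSC-like gate 10 of them had at least 100 UMIs, and only Lbp was called, in a gate where 2.58% of 7274 genes passed the fold. The median log2 KO/WT was -0.03 over the 10 and 0.0032 over all genes of the gate. With a minimum of 20 UMIs, 17 neighbours were measured in this gate, where 9.55% of all genes passed the fold. Src and Tgm2 were then past the fold higher, and Lbp and Ppp1r16b (-0.91, -1.69 to -0.19) lower. In the early erythroid-like gate, where 1.72% of 9080 genes passed the fold, 14 had at least 100 UMIs and only Tgm2 was called. The median was 0.05 against 0.02. Over all cells, where 3.91% of 12633 genes passed the fold, 18 neighbours were measured and 5 were called: Src, Platr27 and Tgm2 higher, Lbp and Ppp1r16b lower. The median of the 18 was 0.03 against 0.0065 over all genes. Within 5 Mb, 16.1% of the 93 genes measured over all cells passed the fold, beside 3.91% of all genes. In the HSC-like gate 3.51% of 57 genes did, beside 2.58% of all genes. In the early erythroid-like gate 2.82% of 71 genes did, beside 1.72% of all genes. The calls in the gates were Lbp and Ndrg3 in HSC-like cells and Tgm2 and Soga1 in early erythroid-like cells, of which Ndrg3 and Soga1 were named after their values were seen.

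**Figure D3:**
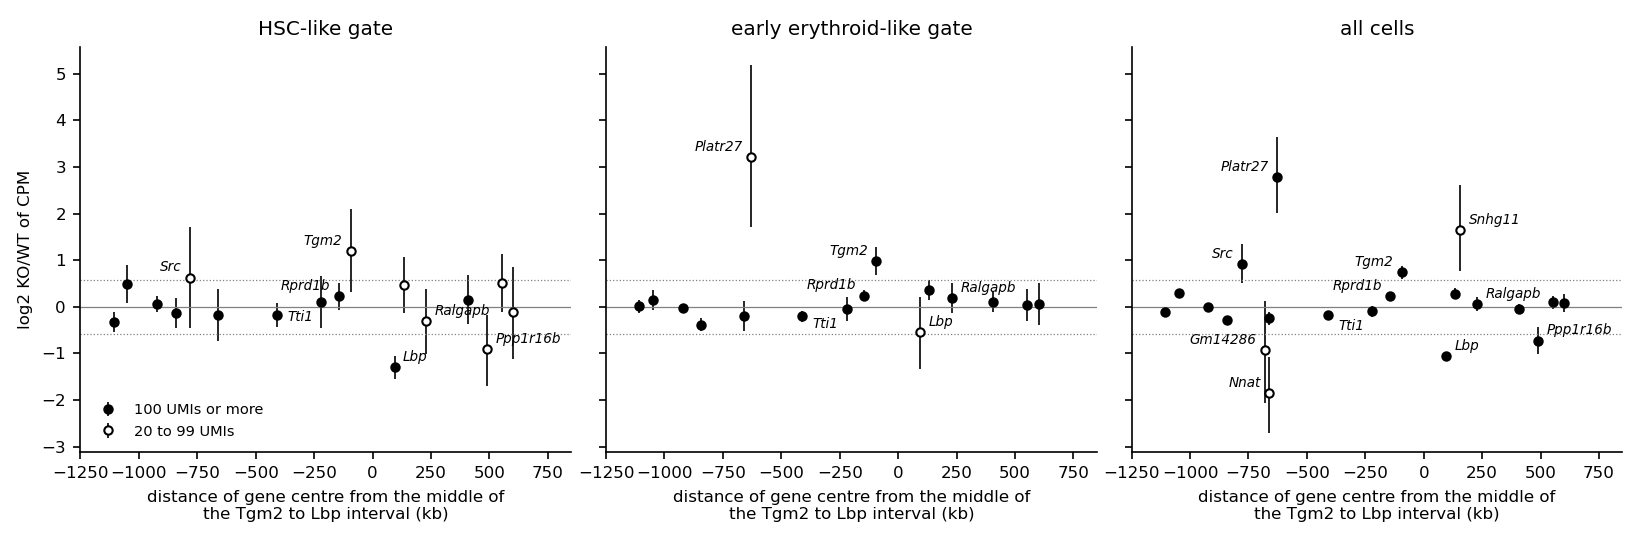
Log2 KO/WT of the genes near Tgm2 and Lbp against the distance of their centre from the middle of the interval in kb, in HSC-like cells, early erythroid-like cells and all cells; filled points had at least 100 UMIs over both libraries, open points 20 to 99, bars are 95% intervals and dotted lines mark 1.5-fold. Lbp in HSC-like cells and Tgm2 in early erythroid-like cells were the only filled points past the lines in their panels.

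Src, Platr27, Nnat and Ppp1r16b are named because their values stood out when seen, and by no rule. Src, a tyrosine kinase gene, had 78 UMIs in WT and 135 in KO over all cells (log2 KO/WT 0.92, 0.51 to 1.34). Platr27, a long non-coding RNA on the minus strand at 157595583 to 157597320, had 16 UMIs in WT and 101 in KO over all cells, 0.148 and 1.02 CPM (log2 KO/WT 2.79, 2.02 to 3.65). In early erythroid-like cells it had 4 and 30 UMIs. Nnat, the imprinted neuronatin gene, had 67 and 17 UMIs (-1.85, -2.71 to -1.07). Ppp1r16b, which encodes a regulatory subunit of protein phosphatase 1, had 277 and 153 UMIs (-0.73, -1.02 to -0.44). In HSC-like cells it had 60 and 22 UMIs, too few for a call, or 11.5 and 6.14 CPM (-0.91, -1.69 to -0.19). All-cell values mix gates whose shares differed between the libraries: the hepatocyte markers summed to 917 CPM over all WT cells and 1436 CPM over all KO cells, and the macrophage markers to 80.3 and 129.6 CPM, whose part in these differences was not tested.

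Male and female cells of the KO library were set apart to compare embryos of 1 genotype, since the WT library held 4 male and 3315 female cells and the KO library 770 male and 3066 female cells. Male cells had a UMI of Ddx3y, Eif2s3y, Kdm5d or Uty and none of Xist, and female cells the reverse. Cells with both (9 in WT and 281 in KO) or neither (130 and 300) were left out. Male and female cells came from different embryos of the pool, so that sex and embryo cannot be told apart. In HSC-like cells Lbp was at 57.6 CPM in KO female cells (157 UMIs, 239 cells) and at 20.6 CPM in KO male cells (8 UMIs, 34 cells), a log2 male/female of -1.48 (-2.72 to -0.47). WT female cells were at 125 CPM, above both. In this gate 8.71% of 4030 genes measured in the 2 KO groups passed 1.5-fold.

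Ungated KO cells showed the same order for Lbp, with 31.3 CPM in WT female, 13.7 CPM in KO female and 4.81 CPM in KO male cells (1256, 338 and 31 UMIs). The log2 male/female within KO was -1.51 (-2.09 to -0.97), in a gate where 4.34% of genes passed the fold. Neutrophil-like cells did not show it. They had 58.3 CPM in KO female and 60.2 CPM in KO male cells (225 and 76 UMIs), a log2 of 0.05 (-0.35 to 0.43), and both were below the 89.1 CPM of WT female cells.

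Tgm2 in early erythroid-like cells stood at 6.43 CPM in WT female, 10.7 CPM in KO female and 19.3 CPM in KO male cells (155, 143 and 87 UMIs). The log2 male/female within KO was 0.85 (0.45 to 1.24), where 3.19% of genes passed the fold, and the log2 of KO female over WT female was 0.73 (0.40 to 1.07). In late erythroid-like cells the 3 groups had 15.6, 18.0 and 14.49 CPM with intervals across 0 for each ratio.

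Among female cells alone, Lbp in HSC-like cells kept a log2 KO/WT of -1.12 (-1.38 to -0.87), where 2.74% of genes passed the fold. Over all female cells, where 2.87% did, Lbp was at -0.91 (-1.002 to -0.82) and Tgm2 at 0.55 (0.39 to 0.70). The latter was below 1.5-fold, unlike the 0.74 of all cells. Rprd1b and Tti1 differed little between KO male and KO female cells, by 0.05 (-0.06 to 0.16) and -0.10 (-0.35 to 0.15) over all cells, where 6.17% of genes passed the fold. Ralgapb differed by 0.23 (-0.04 to 0.50) over all cells. In early erythroid-like cells, where 3.19% of genes passed the fold, it differed by 0.58 (0.06 to 1.09). Rprd1b was there at 0.15 (-0.05 to 0.35) and Tti1 at 0.11 (-0.37 to 0.58). Snhg11 had 22 UMIs in KO female and 15 in KO male cells, 0.328 and 0.866 CPM (1.40, 0.35 to 2.41), and Platr27 had 85 and 13, 1.27 and 0.751 CPM (-0.76, -1.72 to 0.09).

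**Figure D4:**
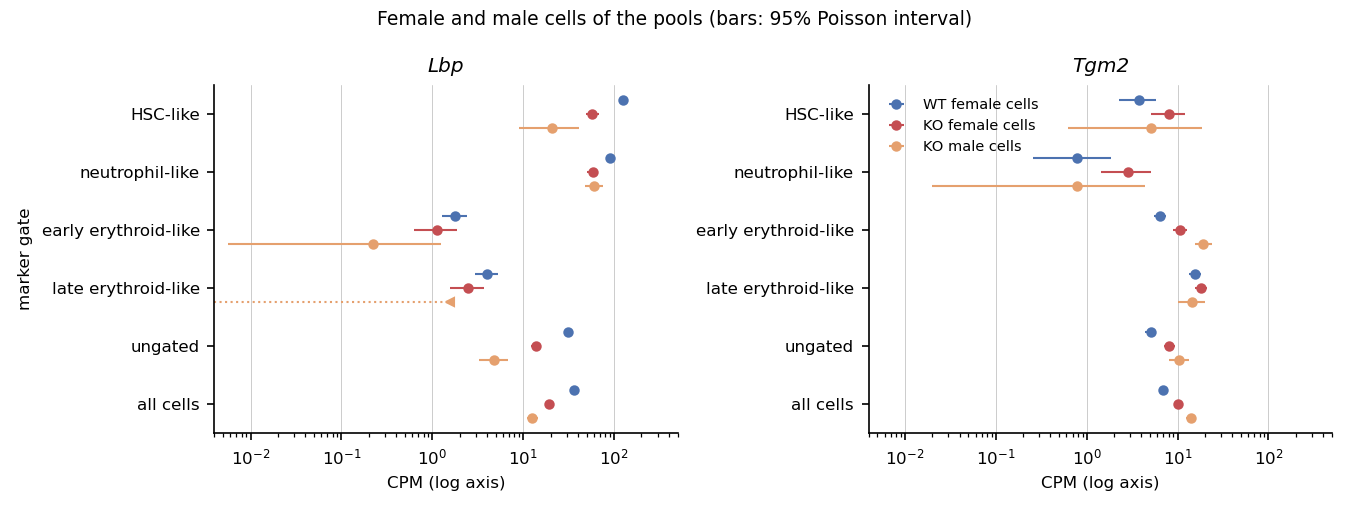
Level of Lbp (left) and Tgm2 (right) in CPM (log axis) in WT female (blue), KO female (red) and KO male (orange) cells by gate; bars are 95% Poisson intervals and the arrow gives the upper bound of a count of 0. Lbp in HSC-like cells stepped from 125 to 57.6 and 20.6 CPM, whereas in neutrophil-like cells both KO groups lay near 60.2 CPM.

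The pathways around the members were described by fixed lists. Of the 13 genes of lipopolysaccharide recognition, 2 had at least 100 UMIs in HSC-like cells and Lbp was the only one called, where 2.58% of all genes were. Cd14, the partner that receives lipopolysaccharide from LBP, had 1 UMI in WT and 0 in KO in this gate, and Tlr4 had 5 and 5. Over all cells 12 of the 13 were measured, Lbp and Cd14 were lower (Cd14 90 and 45 UMIs, -0.87, -1.42 to -0.34), none was higher, against 3.91% of all genes past the fold, and the median log2 KO/WT of 0.04 stood beside 0.0065 for all genes. In neutrophil-like cells, where 1.71% of genes passed the fold, Irak4, a kinase of the pathway, was called higher (49 and 74 UMIs, 0.69, 0.15 to 1.24).

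Acute-phase genes of the hepatocyte were read beside Lbp. In hepatocyte-like cells 4 of the 8 listed genes were measured, 2 were called higher and none lower, with a median of 0.60 against 0.04 over all genes of the gate, of which 3.38% passed the fold. Saa3, a serum amyloid gene, had 31 and 127 UMIs (1.58, 1.01 to 2.20), and Itih4, a plasma protease inhibitor heavy chain, 85 and 212 UMIs (0.87, 0.50 to 1.25). Crp (0.32, -0.17 to 0.83) and Fgb, the fibrinogen β chain (0.04, -0.04 to 0.12), were not called. Over all cells 5 were measured and 4 called higher, Saa3, Itih4, Crp and Fgb, where 3.91% of all genes passed the fold. The KO library also had the higher share of hepatocyte-like cells, whose part in these calls was not tested. Lbp thus lay in the other direction from Saa3 and Itih4 in hepatocyte-like cells.

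Of the 9 transglutaminase genes, 2 were measured in early erythroid-like cells and Tgm2 was the only one called, where 1.72% of all genes were. The 8 genes of Tgm2 partners had 2 measured there and none called, and 3 measured in HSC-like cells with a median of -0.16. Among these Adgrg1, a receptor that binds TGM2, was at 225 and 230 CPM in HSC-like cells (0.03, -0.10 to 0.16), but was called higher in hepatocyte-like cells (85 and 204 UMIs, 0.81, 0.44 to 1.20), where 3.38% of genes passed the fold. Over all cells 7 of the 8 were measured, with a median of 0.41, and 2 were called higher, where 3.91% of genes passed the fold. These were Itgb3, the integrin β3 chain of platelets (295 and 664 UMIs, 1.30, 1.10 to 1.502), and Thbs1, the thrombospondin 1 gene (522 and 984 UMIs, 1.04, 0.89 to 1.20), both named after their values were seen. The megakaryocyte-like gate held 2.28% of the WT and 4.03% of the KO library, and the part of this in the all-cell values was not tested. Of the 11 genes of retinoid response, 4 were measured in HSC-like cells and none was called, where 2.58% of all genes were. In hepatocyte-like cells, where 3.38% of genes passed the fold, 2 were measured and Dhrs3 was called higher. Over all cells 6 were measured and none was called.

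The lists of the other neighbours held few calls. In HSC-like cells 8 of the 9 genes of the Tti1 complex and its kinases were measured and 1 was called, Mtor, the growth-controlling kinase, with 52 and 62 UMIs (0.79, 0.23 to 1.35), where 2.58% of all genes were called. Over all cells Mtor was at 0.13 (0.02 to 0.23), and none of the 9 was called. All 7 genes of RPRD proteins and factors at the polymerase C-terminal domain were measured in HSC-like cells, with no call and a median of -0.03. For Ral GTPases and their regulators 4 of 7 were measured there, with no call and a median of -0.08. Of the 6 genes of the BPI fold family Lbp alone was measured in HSC-like cells. Over all cells, where 3.91% of genes passed the fold, 2 were measured and Lbp was called lower. Pltp, the phospholipid transfer protein gene, was called higher (118 and 185 UMIs, 0.78, 0.44 to 1.12).

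The genes whose levels ran most like those of Lbp over 20 profiles (the 10 gates in both libraries, which share their depth within a library) were Gm1673, Cd200r1, Rin3, Tmem59 and Tnrc18, with Pearson r of log2(CPM + 1) from 0.912 to 0.929 among 11522 genes. Their log2 KO/WT over all cells ran from -0.36 for Cd200r1 to -0.10 for Gm1673. For Tgm2 they were Cd99l2, Pon2, Tbc1d12, Sh3glb1 and Arhgef12, with r from 0.870 to 0.907 and log2 KO/WT from 0.05 to 0.35. Between Lbp and Tgm2 r was -0.29. The genes above were picked for their high r, so that the r of any other gene had to lie lower. The r of the nearest neighbours was not set against that of all genes. With Lbp, r was -0.56 for Rprd1b, 0.09 for Tti1 and 0.34 for Ralgapb. With Tgm2, r was 0.18 for Rprd1b, -0.46 for Tti1 and 0.12 for Ralgapb.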

How the data were processed

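Single-cell 3′ libraries (10x Genomics, v3 chemistry) were made from LSK cells of fetal liver at E14.5, with 1 pool for WT and 1 for KO. The authors aligned the reads with Cell Ranger 6.0.0 to GRCm38 (mm10) and deposited the counts of UMIs, gene by cell, for barcodes that passed cell calling. PCR copies are thus counted once, and the values are not normalised. The annotation release is not given in the sources used here. Gene positions were taken from GENCODE vM21, which held 32158 of the 32285 gene IDs.

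Barcodes under 1000 detected genes or above 20% of mitochondrial UMIs were left out, 382 of 3840 in WT and 511 of 4928 in KO. Total counts were 109122324 UMIs in WT and 100029143 in KO. Scrublet (scanpy 1.11.5, expected rate 5%) called 3.90% of WT and 5.80% of KO cells as doublets, which were kept. Each cell received for each of 12 classes the mean z-score of log2(UMIs per 10000 + 1) over the class markers. It was gated to its top class where the score reached 0.5 and lay 0.25 above the next, and cells within 0.1 of either limit counted as near a cut. Gates whose median cell carried fewer than 2 of its markers, mast-basophil-like (0.578% of WT and 0.770% of KO cells) and stromal-like (1.74% and 1.34%), were returned to ungated, a rule set after seeing the cells.

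UMIs were summed per gate and library with Python 3.11.15 and scipy 1.17.1, and given as CPM with exact Poisson intervals. Log2 KO/WT has an exact conditional (Clopper-Pearson) interval, and differences of shares combine the intervals of both shares. A gene was called at 1.5-fold or more (0.585 on the log2 scale) with at least 100 UMIs over both libraries, and a count of 0 was given a floor of 3 UMIs. Simulated data with known folds were used to test the scripts. Named were the 7 members, the neighbours between Tgm2 and Ralgapb, called neighbours within 1 Mb in HSC-like or early erythroid-like cells, list genes called in HSC-like cells, the 5 genes most like Lbp and Tgm2 and Nfkbia; other genes were named after their values were seen. The members, markers and lists were chosen with earlier results of these data known. Alternatives covered scaling, cell filters, doublets, gating, sex, count minimum, window and thinning. A result of the retinoid list in early erythroid-like cells is not reported here.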

Additional observations from a re-analysis of the deposited data

How the results depend on the processing

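Of 270 values of log2 KO/WT of 5 members under the alternatives, 263 stayed within the counting interval of the reported value, 7 moved beyond it and 0 of the called values changed sign. Lbp in HSC-like cells stayed between -1.39 and -1.12, and Tgm2 in early erythroid-like cells between 0.73 and 1.09. When CPM was averaged over single cells instead, Lbp moved to -1.37 in early erythroid-like and to -1.18 in all cells, Tgm2 to 0.60 in all cells, and 2 gates were called for Tgm2. Gating on thinned cells moved Lbp in early erythroid-like cells to -1.60 (75 and 21 UMIs) and also gave 2 gates. With female cells only, all-cell values were -0.91 for Lbp and 0.55 for Tgm2, and Tgm2 in hepatocyte-like cells was -0.08. The cause was not tested. Lowering the minimum to 20 UMIs raised the share of all genes past 1.5-fold to 9.55% in HSC-like, 6.48% in early erythroid-like and 8.36% in all cells, and the neighbours past it to 4, 2 and 8. A minimum of 200 UMIs gave 1.05% and 0.955% in the 2 gates. A window of 5 Mb held 2, 2 and 15 called genes, and one of 0.5 Mb held 3 in all cells. The share difference of Lbp in HSC-like cells was -14.8 points at 2000 UMIs per cell and -43.4 points without thinning, and that in early erythroid-like cells -3.64 points without thinning, where WT cells were deeper. Other scalings moved the median of all genes by at most 0.04. No paired analysis was possible because there was 1 library per genotype. Depth limits Tgm2 outside the erythroid and hepatocyte-like gates, and Bpi and Snhg11 throughout.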
